A study of Mus musculus with 8 samples.

Results

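The genes described here are 10 components of the brain extracellular matrix, taken from the 21165 gene rows of the count table by their symbols: the lecticans Ncan, Bcan, Vcan and Acan, the tenascins Tnc and Tnr, the link protein gene Hapln1, the transmembrane chondroitin sulfate proteoglycan genes Cspg5 and Ptprz1, and reelin (Reln). All 10 are rows of the table, and 8 passed the filter on low counts and were tested, with Acan and Hapln1 left out. They were measured by sequencing of polyadenylated RNA from the cortices of 4 Nuak1 KO embryos and 4 WT embryos at E18.5. The KO embryos carried a constitutive Nuak1 KO, which acts in every cell of the embryo and is lethal at birth, and the WT embryos were taken from litters that also gave KO embryos. The labels give 2 male and 2 female KO embryos, 1 male and 3 female WT embryos, and 3 litters, each of which gave embryos of both genotypes. Library names hold the genotype and R1 to R4, which no label ties to an embryo, so litter and sex could not be assigned to a library and their part in the results was not tested.

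The lecticans are secreted core proteins that carry chondroitin sulfate chains, and that bind hyaluronan at one end and tenascins at the other. Link proteins lock a lectican onto hyaluronan, and this mesh condenses after birth into the perineuronal nets around some neurons. In the developing cortex the same molecules fill the space that neurons and axons cross, while reelin, secreted by Cajal-Retzius cells of the marginal zone and later by interneurons, directs the placement of migrating neurons.

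KO libraries held between 11027082 and 27014858 counts and WT libraries between 9643711 and 18940484. Nuak1 had at most 20.5 normalized counts in a KO library and at least 877 in a WT library, so each library followed its label. Normalized counts here mean counts brought to a common depth, the average effective size of the 8 libraries, and KO was compared with WT over 12699 genes by edgeR's quasi-likelihood test. Of the 8 libraries, WT library R4 was the highest or the lowest for 42.0% of the genes tested, WT library R3 for 35.3% and KO library R1 for 34.3%, where an even division over libraries gives 25%. KO library R1 also held 10950 normalized counts summed over 10 meningeal fibroblast markers, against 368 to 661 in the other libraries. Where leaving out one of these libraries moved the fold change of a tested gene most or changed its call, the value without it is given.

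Tnr was the only one of the 8 tested genes that passed the thresholds of the study, which ask for a log2 fold change beyond 0.25 in either direction with p below 0.05 before adjustment, and it was higher in KO. Among all genes tested, 4.25% passed these thresholds, 2.45% as higher in KO and 1.8% as lower. After adjustment over all genes tested, 0 of the 8 genes were under 0.05 with edgeR and 0 with DESeq2, against 0.0709% of all genes with edgeR. With edgeR, 2 of the 8, Tnr and Ptprz1, had an unadjusted p under 0.05, against 7.69% of all genes. The 8 genes did not move in 1 direction, with 4 higher and 4 lower in KO, where 45.6% of all genes were higher, and a median log2 fold change of -0.02, close to the median of -0.01 over all genes.

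Ranked by level per length, 8 of the 10 genes were well expressed and Acan and Hapln1 were barely detected. Levels between genes were compared as CPM (counts scaled to library size) per kilobase of annotated exon, averaged over the 8 libraries. Ptprz1 stood highest with 103 CPM per kilobase, followed by Tnc with 73.7, Ncan with 48.0, Reln with 43.1, Cspg5 with 31.6, Bcan with 23.8, Tnr with 15.9 and Vcan with 10.7. The ranges of most neighbours in this order overlapped, except for those of Tnc and Ncan, and of Vcan and Acan. Compared within each library, Ptprz1 was always above Tnc, Cspg5 above Bcan and Bcan above Tnr. Ncan and Reln changed order in WT library R2, Reln and Cspg5 in WT library R4, and Tnr and Vcan in WT library R3. The order of Reln also depends on the length used, because its annotated exons cover 19845 bases together and 11702 bases in the longest transcript, which gives 73.2 CPM per kilobase and moves it above Ncan.

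**Figure D1:**
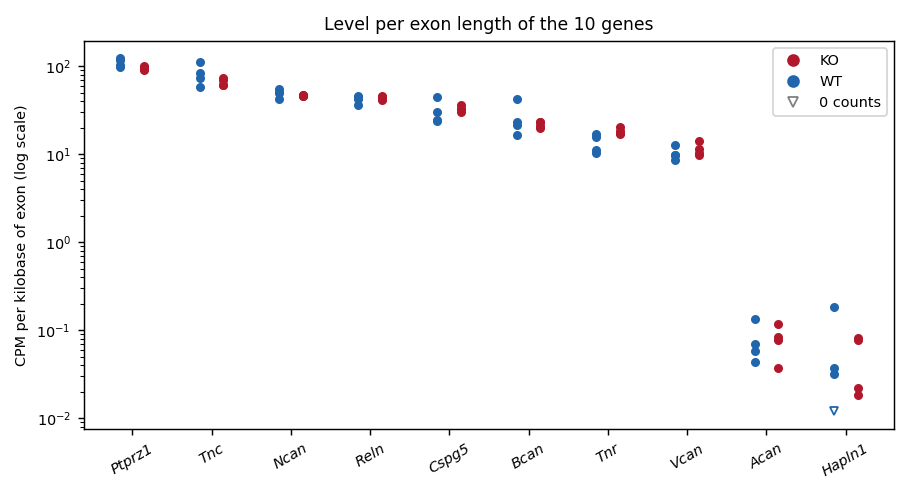
Level of each of the 10 genes in CPM per kilobase of annotated exon on a log axis, with 1 point per library (WT in blue, KO in red) and an open triangle for a library with 0 counts. The 8 tested genes lie between 8.50 and 122 CPM per kilobase in every library, and Acan and Hapln1 lie below 0.19.

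Acan encodes aggrecan, the lectican that dominates mature perineuronal nets. It had between 3 and 21 counts per library, 80 in all, and 0.0776 CPM per kilobase. Hapln1 had between 0 and 10 counts per library, 34 in all, with the 0 in WT library R3, where up to 3 counts cannot be told from none by counting error alone. No difference between genotypes was detectable at this depth for either gene, and no fold change is given.

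The 4 lectican genes each lie beside a link protein gene on NCBIM37, the assembly behind mm9, with 0 annotated coding genes in between. Ncan on chromosome 8 lies 2222 bases from Hapln4, Bcan on chromosome 3 lies 21393 bases from Hapln2, Acan on chromosome 7 lies 40 bases from Hapln3, and Vcan on chromosome 13 lies 43477 bases from Hapln1. For Acan and Hapln3 the counts per library were both low, 3 to 21 and 7 to 26. Ncan, Bcan and Vcan had between 746 and 8996 counts per library, while Hapln1, Hapln2 and Hapln4 had at most 11 in any library, and only Hapln3 of the link protein genes was tested.

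The lecticans did not differ between genotypes beyond the spread between libraries. Ncan (chr8:72616984-72644772) encodes neurocan, the main lectican of the developing brain. It had 5413, 5630, 5567 and 5460 normalized counts in KO libraries R1 to R4 and 5927, 5064, 6048 and 6567 in WT libraries R1 to R4. The KO libraries lay within the range of the WT libraries and close to each other. KO differed from WT by a log2 fold change of -0.10 (standard error 0.07, 95% interval -0.25 to 0.06), with an adjusted p of 0.816 from edgeR. It was -0.03 without WT library R4 and -0.16 without WT library R2, where the unadjusted p from edgeR was 0.0118, and it stayed under the fold threshold of the study in all 8 fits with a library left out.

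Bcan (chr3:87791453-87804278) encodes brevican, the shortest lectican, made by astrocytes and oligodendrocyte precursors. It had 1236, 1134, 1079 and 1260 normalized counts in KO and 1160, 878, 1259 and 2265 in WT. WT library R4 stood alone above the other 7 libraries, and the rest overlapped. For Bcan edgeR gave -0.23 on the log2 scale (standard error 0.23, adjusted p = 0.860), and without WT library R4 it was 0.11 (adjusted p = 0.703 from edgeR), so its direction rested on that library.

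Vcan (chr13:89794915-89882117) encodes versican, whose splice forms differ in how many chondroitin sulfate chains they carry and cannot be told apart in counts per gene. It had 2329, 3342, 2726 and 2440 normalized counts in KO and 2327, 2334, 3012 and 2030 in WT. KO library R2 was the highest and WT library R4 the lowest, with overlap in between. For Vcan the log2 fold change was 0.16 (standard error 0.13, 95% interval -0.13 to 0.44), with an adjusted p of 0.835 from edgeR. Without WT library R3 it was 0.28 and passed the thresholds of the study, with an adjusted p of 0.969 from edgeR, and without WT library R4 it was 0.09.

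Per kilobase, the makeup of the lecticans was close in the genotypes. Ncan made up 58.3 ± 1.05% of the summed lectican level in KO and 58.6 ± 4.47% in WT (SD over 4 libraries each). For Bcan the shares were 27.4 ± 2.18% and 29.2 ± 7.14%, and for Vcan 14.2 ± 2.06% and 12.2 ± 2.99%. WT library R4 stood apart here as well, with 39.7% Bcan and 8.03% Vcan, against at most 29.3% Bcan in any other library and 12.5 to 17.0% Vcan in KO libraries.

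The tenascins differed from the lecticans in that one of them, Tnr, did pass the thresholds. Tnr (chr1:161667641-161855053) encodes tenascin-R, a multimeric glycoprotein of oligodendrocyte lineage cells and some neurons that cross-links lecticans. It had 1391, 1415, 1484 and 1663 normalized counts in KO libraries R1 to R4 and 1380, 1280, 846 and 915 in WT libraries R1 to R4. Every KO library was above every WT library, but KO library R1 exceeded WT library R1 by a narrow margin, and WT libraries R3 and R4 lay far below the other 6. The genotypes did not overlap in 4.49% of all genes tested. KO averaged 1488 ± 123 and WT 1105 ± 264 normalized counts (SD over 4 libraries), which puts KO 34.7% higher.

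The log2 fold change of Tnr was 0.42 (standard error 0.14, 95% interval 0.11 to 0.73), with an unadjusted p of 0.0121 and an adjusted p of 0.551 from edgeR. The 2-sided exact permutation test of log2 CPM gave p = 0.0286, the smallest that 4 against 4 libraries allow. This value follows from the lack of overlap and adds nothing to it. Tnr ranked 279 by p among the 12699 genes. It stayed past the thresholds of the study in all 8 fits that each left out a library, with log2 fold changes between 0.32 without WT library R3 and 0.55 without WT library R1.

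Tnc (chr4:63620819-63681760) encodes tenascin-C, which is made by radial glia and immature astrocytes. It had 7574, 8674, 8979 and 7628 normalized counts in KO and 9037, 7179, 13623 and 10438 in WT. WT libraries R3 and R4 were the highest, the reverse of their place for Tnr, and WT library R2 was the lowest of all. For Tnc the log2 fold change was -0.29 (standard error 0.16, 95% interval -0.64 to 0.05), with an adjusted p of 0.720 from edgeR. Without WT library R2 it was -0.43 and passed the thresholds of the study (adjusted p = 0.439 from edgeR), and without WT library R3 it was -0.11. An exon stretch of 176 bases, 2.34% of the Tnc exons, overlaps another annotated gene on the opposite strand.

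Set against each other per kilobase, Tnc exceeded Tnr in every library. The ratio of Tnc to Tnr lay between 3.02 and 4.04 in KO libraries, and was 4.32, 3.70, 10.6 and 7.51 in WT libraries R1 to R4. The genotypes overlapped through WT library R2, and the difference did not pass a 2-sided exact permutation test of the log2 ratio (p = 0.114). KO minus WT was -0.72 in log2 ratio with all libraries. It was -0.44 without WT library R3, -0.61 without WT library R4 and -0.95 without WT library R2. With a library left out, too few libraries remain for this permutation test to give a p under 0.05, so it decides nothing there.

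**Figure D2:**
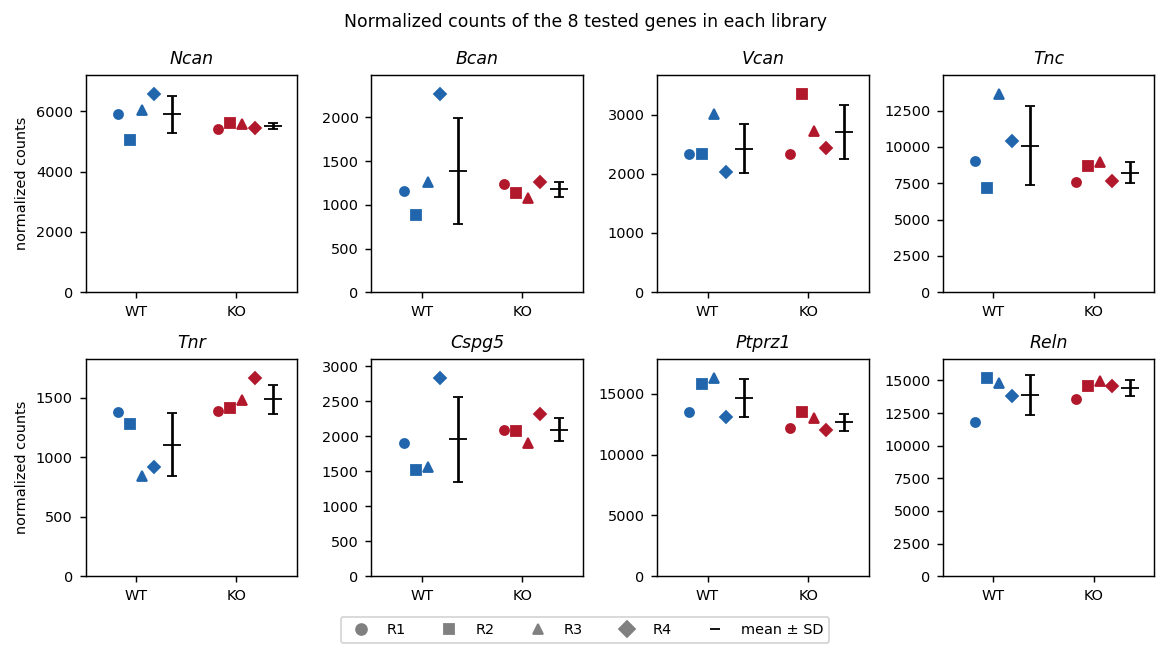
Normalized counts of the 8 tested genes in each library, with WT in blue, KO in red, 1 marker shape per running number, and the mean ± SD of each genotype in black (n = 4). For Tnr the 4 KO libraries lie above the 4 WT libraries, and for Bcan and Cspg5 WT library R4 lies above the other 7 libraries.

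Of the transmembrane proteoglycan genes, neither passed the thresholds of the study with all libraries. Ptprz1 (chr6:22825502-23002916) encodes a receptor tyrosine phosphatase of glia and progenitors, whose secreted splice form, phosphacan, cannot be told apart from the receptor here. It had 12180, 13468, 13019 and 11989 normalized counts in KO and 13534, 15773, 16266 and 13073 in WT. WT libraries R2 and R3 were the highest, and 3 of the 4 KO libraries were below every WT library. Ptprz1 had a log2 fold change of -0.21 (standard error 0.08, 95% interval -0.38 to -0.04), which is under the 0.25 threshold of the study, with an unadjusted p of 0.0194 and an adjusted p of 0.584 from edgeR.

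The 2-sided exact permutation test gave p = 0.0571 for Ptprz1. The unadjusted p from edgeR rose past 0.05 without KO library R1, KO library R4, WT library R2 or WT library R3, up to 0.0743 without the last. Without WT library R4 the log2 fold change was -0.26, past the thresholds of the study.

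Cspg5 (chr9:110146287-110165079) encodes neuroglycan C, a proteoglycan with an EGF-like domain that is found mainly in the nervous system. It had 2083, 2066, 1907 and 2309 normalized counts in KO and 1908, 1521, 1556 and 2824 in WT. As for Bcan, WT library R4 was the highest of all 8 libraries, and WT libraries R2 and R3 were the lowest. From edgeR, Cspg5 had an adjusted p of 0.916 and a log2 fold change of 0.11 (standard error 0.17). Without WT library R4 it was 0.34 and passed the thresholds of the study, with an unadjusted p of 0.00279 and an adjusted p of 0.215 from edgeR. It was 0.02 without WT library R3 and 0.00213 without WT library R2.

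Reln (chr5:21390272-21850523) held more counts than any of the other 9 genes, 114049 over the 8 libraries, and differed little between genotypes. It had 13578, 14559, 14986 and 14539 normalized counts in KO and 11790, 15155, 14766 and 13783 in WT. WT library R1 was the lowest and WT library R2 the highest, so the KO libraries lay inside the WT range. Reln had a log2 fold change of 0.06 (standard error 0.08, 95% interval -0.11 to 0.22), with an adjusted p of 0.904 from edgeR. The interval leaves out a change of the size measured for Tnr, and without WT library R1 the value was -0.015. Other annotated exons overlap 1.24% of the Reln exons on the opposite strand.

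**Figure D3:**
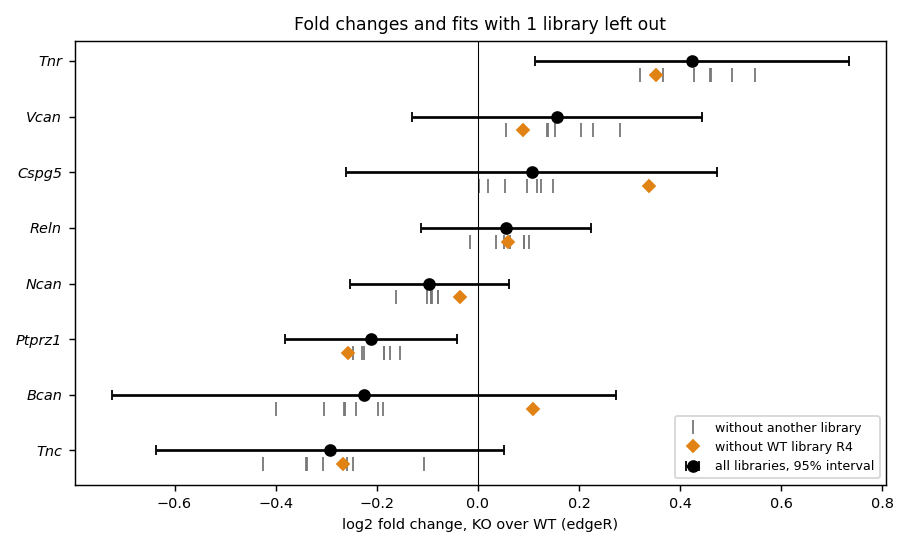
Log2 fold change of KO over WT from edgeR for the 8 tested genes, with the 95% interval in black and the fits that each leave out 1 library below it (orange for WT library R4, grey bars for the others). The interval excludes 0 for Tnr and Ptprz1, and the fit without WT library R4 moves Bcan from -0.23 to 0.11 and Cspg5 from 0.11 to 0.34.

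The spread between libraries was wider in WT than in KO for all 8 tested genes. The coefficient of variation was 1.79% in KO and 10.6% in WT for Ncan, 7.24% and 43.5% for Bcan, and 7.90% and 31.1% for Cspg5. The median over the 8 genes was 7.57% in KO and 20.5% in WT. Among all genes tested the spread was wider in WT for 61.3%, with medians of 8.18% and 10.2%. Without WT library R4, 7 of the 8 genes still had the wider spread in WT, against 44.7% of all genes. With 4 libraries a genotype, a coefficient of variation is itself imprecise, and the difference in spread was not tested.

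Other parts of the same matrix were examined with 6 lists of pathway genes. Of 21 tested genes of chondroitin sulfate synthesis, such as the polymerising enzymes Chsy1 and Chpf and the sulfotransferase Chst11, 0 passed the thresholds of the study with edgeR and 0 had an unadjusted p under 0.05. With DESeq2 0 passed as well. Their median log2 fold change was -0.02. Of 20 tested genes of reelin signalling, which include the receptors Lrp8 at 0.02 and Vldlr at 0.09 on the log2 scale, 0 passed with edgeR or DESeq2, 0 had an unadjusted p under 0.05 with edgeR, and the median was 0.01. The adaptor gene Dab1 was not analysed here.

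Of 24 tested receptors and ligands of the matrix, only Ptn passed, with a list median of -0.01. Ptn encodes pleiotrophin, a secreted growth factor that binds the chondroitin sulfate chains of Ptprz1 and inhibits its phosphatase activity. It had 15209, 11398, 14035 and 14684 normalized counts in KO and 9702, 8237, 7280 and 9528 in WT. Every KO library was above every WT library. KO was higher by 0.67 on the log2 scale (standard error 0.11) with an adjusted p of 0.0645 from edgeR, and the change lay between 0.60 and 0.77 with each library left out. DESeq2 gave an adjusted p of 1.6e-06, and edgeR with no filter on low counts gave 0.0447. Midkine (Mdk), the other member of this ligand family, had a log2 fold change of -0.01.

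Of 7 tested genes of hyaluronan and link proteins, Has3 passed, and the list median was -0.16. Has3, one of the hyaluronan synthases, had between 43.6 and 53.2 normalized counts in KO and between 63.4 and 84.5 in WT, without overlap. Its log2 fold change was -0.55 (standard error 0.16, adjusted p = 0.467 from edgeR), and it passed the thresholds of the study in all 8 fits with a library left out.

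Of 14 tested proteases and inhibitors, Adamts20, a metalloprotease related to those that cleave versican, passed at 0.44 on the log2 scale (standard error 0.18; edgeR's adjusted p was 0.631), and the list median was 0.03. It passed in only 3 of the 8 fits with a library left out, those without KO library R2, WT library R1 or WT library R2. Adamts4 and Adamts5, which cleave brevican and aggrecan, did not pass. Adamts5 averaged only 11.4 normalized counts in KO and 15.2 in WT, with a log2 fold change of -0.40 (standard error 0.30) and an adjusted p of 0.816 from edgeR.

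Among 8 tested other proteoglycans and tenascins, Dcn and Bgn passed, and the list median was 0.16. Both encode small leucine-rich proteoglycans of connective tissue. Dcn had 662 normalized counts in KO library R1 and at most 38.3 in any other library, and Bgn 546 and at most 203. Without KO library R1 their log2 fold changes fell from 2.93 to 0.21 and from 0.76 to 0.22 and neither passed. Dcn passed in 5 and Bgn in 3 of the 8 fits with a library left out, and DESeq2 gave Dcn no p and did not call Bgn. The same library held the high meningeal fibroblast markers, with the part of these in the result not tested. None of the 8 matrix genes tested had its highest or lowest value in KO library R1. Without KO library R1, though, the unadjusted p of Ptprz1 from edgeR was 0.0518. The part of meningeal cells in the values of the 8 genes was not tested.

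**Figure D4:**
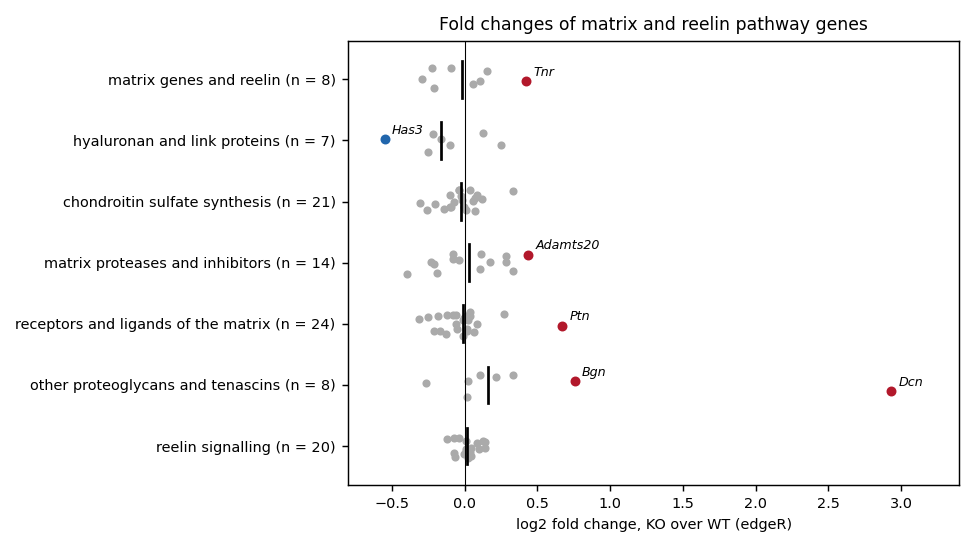
Log2 fold change of KO over WT from edgeR for the 8 tested matrix genes and for 6 lists of pathway genes, 1 point per gene, with the list median as a black bar and genes past the thresholds of the study coloured and named (red higher in KO, blue lower). Besides Tnr, the named genes are Has3, Adamts20, Ptn, Bgn and Dcn, and the points of chondroitin sulfate synthesis and reelin signalling are all grey.

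The cells known to make these molecules were followed with lists of markers, since in whole cortex fewer cells of a type cannot be told apart from less RNA per cell. Projection neuron markers were abundant, as the label of cortex calls for, led by Neurod6 with 9366 normalized counts in KO and 7740 in WT, and the choroid plexus markers summed to at most 28 in any library. Over the 9 tested projection neuron markers the median log2 fold change was 0.09. Past the thresholds of the study, 1 of them was higher in KO and 2 were lower. The 2 lower, Fezf2 and Bcl11b, encode transcription factors of deep-layer neurons.

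Of 16 astroglia and radial glia markers, 13 were below 0, where 45.6% of all genes tested were above 0. The list median was -0.11 on the log2 scale. Past the thresholds, 0 were higher and 2, Slc1a3 and Slc1a2, were lower. These glutamate transporters had log2 fold changes of -0.30 and -0.45 and each passed in 4 of the 8 fits with a library left out, and neither passed without KO library R3 or WT library R4. Without WT library R4 the list had 1 marker higher and 0 lower past the thresholds with edgeR. The summed markers lay between 27392 and 31185 normalized counts in KO and between 24856 and 35553 in WT, highest in WT libraries R3 and R4, which were also the highest for Tnc and lowest for Tnr. The part of glial content in the values of Tnc and Tnr was not tested.

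Of 10 tested oligodendrocyte precursor markers, 0 passed with edgeR or DESeq2, 0 had an unadjusted p under 0.05 with edgeR, and the median was 0.07. They summed to between 2593 and 3232 normalized counts in KO and between 2772 and 3160 in WT. Their median deviation, the log2 CPM of a library minus the mean over the 8, was 0.40 in WT library R4, above every other library, and -0.38 in WT library R2, below every other library. Bcan and Cspg5 had the same highest and lowest library. So did the medians of the astroglia and radial glia markers (0.43 and -0.20) and of the interneuron markers (0.22 and -0.17). By summed counts, the precursor markers were instead highest in KO library R1, at 3232. Without WT library R4 the median log2 fold change of the precursor markers rose to 0.40. Past the thresholds, 4 of them were then higher and 1 lower among 11 tested. Cspg5 moved from 0.11 to 0.34 in the same fit. The part of any of these cell types in the level of Bcan and Cspg5 was not tested.

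Of 7 tested Cajal-Retzius cell markers, 0 passed with edgeR, 0 had an unadjusted p under 0.05, and 1 passed with DESeq2. The 7 log2 fold changes lay between -0.25 and 0.79, with a median of 0.02, Trp73 at 0.02 and Calb2 at 0.01. Of 13 interneuron markers, 12 were below 0, where 45.6% of all genes tested were above 0. Only Npy, higher by 0.87 on the log2 scale, passed, and the list median was -0.14. Without WT library R4, 4 of the interneuron markers were above 0 and the median was -0.03. Without WT library R2 the median was -0.23, and 4 passed as lower beside 1 as higher with edgeR. Both cell types are known to make reelin, whose own log2 fold change was 0.06.

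The remaining lists hold markers of meningeal fibroblasts, endothelium, microglia and red blood cells. All 6 tested meningeal fibroblast markers passed as higher in KO, with a median of 2.93 that fell to 0.37 and 2 genes without KO library R1. Of 8 endothelial markers Cldn5 passed (median 0.24, or 0.10 without KO library R1). Of 6 microglia markers 0 passed with edgeR or DESeq2 and 0 had an unadjusted p under 0.05 with edgeR (median 0.12). Of 5 red blood cell markers Hba-a1 passed (median 0.29, or 0.27 without KO library R1). Hba-a1 had 2123 and 3637 normalized counts in KO libraries R1 and R2, and at most 349 in any other library. Without KO library R1 the log2 fold change of Tnr was 0.46 and that of Ptprz1 -0.19.

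**Figure D5:**
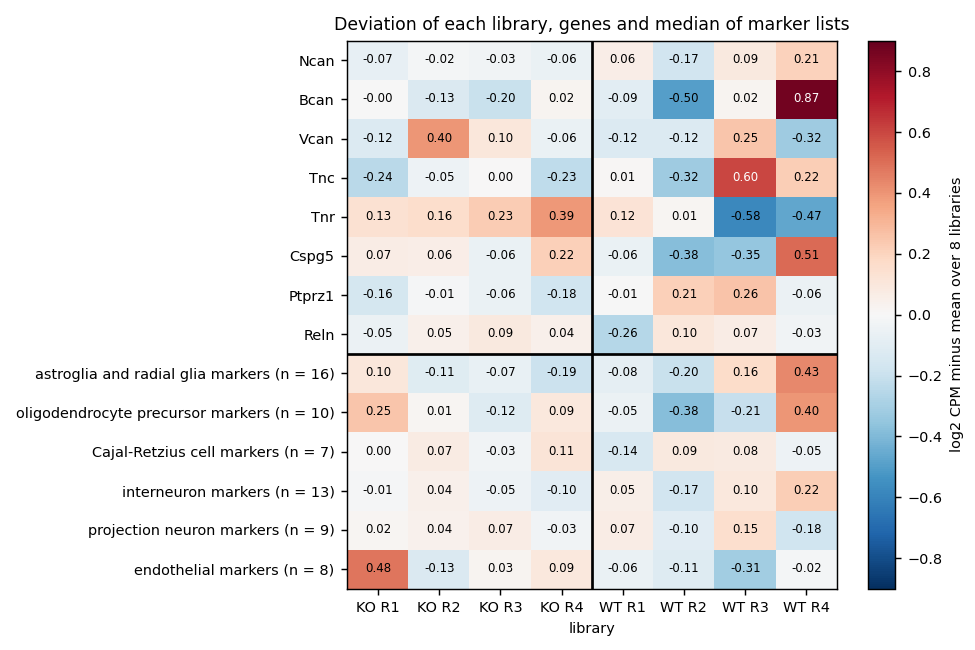
Deviation of each library in log2 CPM from the mean over the 8 libraries, for the 8 tested genes (top) and as the median over 6 marker lists (bottom), with red above and blue below the mean. WT library R4 is at 0.87 for Bcan, 0.51 for Cspg5, 0.43 for the astroglia and radial glia markers and 0.40 for the oligodendrocyte precursor markers, while Tnr is at -0.58 and -0.47 in WT libraries R3 and R4.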

How the data were processed

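RNA of 8 cortices was sequenced as paired reads from stranded, polyA-enriched libraries. Trimming by the authors used Cutadapt 1.13 and Prinseq. The authors mapped the reads to mm9 by TopHat2 2.0.13 with Samtools 0.1.19, and deposited whole-number counts per gene from HTSeq-count, not normalized. The gene models, counting mode and strand setting are not given in the sources used here, so reads of overlapping genes are uncertain.

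KO and WT counts were compared by the quasi-likelihood test of edgeR 4.0.16 under R 4.3.3, after TMM and filterByExpr, with Benjamini-Hochberg adjustment over 12699 genes, all 8 libraries and no covariate. Alternatives were DESeq2 1.42.0, its size factors in edgeR, no filter, at least 10 counts in every library, and leaving out each library. The authors also used DESeq2, in a version not given for these data. The standard error is the log2 fold change divided by the square root of F. P-values measure the spread between these embryos. Depth lay between 9643711 and 27014858 counts, and 0 per-library columns were left unused. Exact permutation tests used SciPy 1.17.1. Log2 CPM used a prior count of 2. Lengths and positions come from GENCODE on NCBIM37, which may differ from the gene models counted.

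The genes and lists were chosen with earlier results of these data known. Genes named besides the 10 are Nuak1, up to 4 called genes per pathway list by p, and per marker list the 3 with most counts or without overlap. Mdk, Lrp8, Vldlr, Chsy1, Chpf, Chst11, Dab1, Adamts4, Adamts5, Hapln2, Hapln3, Hapln4, Slc1a2, Slc1a3, Fezf2 and Cldn5 were named after their values were seen. The values of 1 marker gene are not reported here. In counts simulated for this comparison, where 12609 genes were tested, an adjusted p under 0.05 was reached by 36 of 67 genes with a log2 change of 0.5, by 56 of 67 with a log2 change of 1 and by 10 of 12409 without one. The thresholds of the study were passed by 54 of 67, 66 of 67 and 352 of 12409 of these genes. Counts of each gene were drawn independently, without the library shifts of the real data, so these rates need not hold here.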

Additional observations from a re-analysis of the deposited data

Results flagged for a closer look

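Among the 4 libraries of a genotype, 1 library was taken to stand apart when the distance to its neighbour made up more of their range than Dixon's 95% critical value. This was done for 42 genes in 84 groups of 4 libraries, and in 9 cases a library stood apart, where chance gives about 4.2. In the 16 groups of the tested matrix genes 0 libraries stood apart.

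In KO library R1 the values were 546 normalized counts of Bgn, 405 of Cdh5, 2716 of Col1a2, 3133 of Col3a1, 662 of Dcn and 1786 of Ptgds. In KO library R4 there were 1075 of Hbb-b2, an adult beta-globin, below 2329 to 2363 in the other KO libraries. Among WT libraries, R1 had 227 normalized counts of Cdh5 and R3 had 514 of Lhx6.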

How the results depend on the processing

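No paired analysis was possible because libraries could not be assigned to litters, and neither a litter block nor sex as a covariate was run. Leaving out KO library R1 and WT library R4 together was chosen after seeing the data, as was leaving out each library for the ratio of Tnc to Tnr. The number of matrix genes past the thresholds of the study was 1 under each test, normalization and filter, 2 without KO library R1 and WT library R4, and 1 to 3 with a library left out, highest without WT library R4. The number past an adjusted p of 0.05 was 0 throughout.

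With a library left out, log2 fold changes ranged from -0.16 to -0.03 for Ncan, from -0.40 to 0.11 for Bcan, from 0.056 to 0.28 for Vcan, from -0.43 to -0.11 for Tnc, from 0.00213 to 0.34 for Cspg5, from -0.26 to -0.15 for Ptprz1 and from -0.015 (without WT library R1) to 0.10 for Reln. Without KO library R1 and WT library R4, Bcan was 0.0909 and Cspg5 0.34. Past the thresholds of the study, 5 genes of the pathway lists became 3 with DESeq2, and leaving out a library gave 4 to 9, highest without WT library R2. Beyond the removal of a library, the cause was not tested. Over all genes, 9 had an adjusted p under 0.05 with edgeR and 70 with DESeq2, and 540 passed the thresholds of the study, against 426 without WT library R3 and 847 without WT library R4. Low counts limit Acan and Hapln1, which were left out by the filter and did not pass the thresholds without it. Whether their counts depend on the gene models used for counting, which are not given, was not tested.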

Other observations

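For each tested matrix gene, the genes whose log2 CPM followed it most closely were sought by Pearson's r over the 8 libraries among all 12699 genes, as a description only, since 8 libraries allow high values among so many genes and these libraries share the shifts of WT libraries R3 and R4. For Tnr they were Gtpbp6 (r = 0.985), 2310001A20Rik (r = 0.971) and mt-Nd1 (r = 0.968). For Cspg5 the closest was Slc24a3, a sodium-calcium exchanger gene (r = 0.995), and for Bcan it was Dlgap3, a postsynaptic scaffold gene (r = 0.991). For Ptprz1, Vcan, Ncan and Tnc the closest were Ankle2 (r = 0.986), Dcun1d4 (r = 0.985), Crtac1 (r = 0.974) and Atxn2 (r = 0.973). For Reln the closest, Rnf149, reached r = 0.902, which fell to 0.45 without the 2 libraries farthest from the median of Reln.

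Between the matrix genes themselves, Ncan and Bcan had the highest r over the 8 libraries, 0.85 (Spearman's rho 0.548, and r = 0.657 without WT library R4), and Tnc and Tnr the lowest, -0.817 (rho -0.476). Without WT library R4 the order changed, with Ncan and Tnc at 0.84 the highest and Cspg5 and Ptprz1 at -0.953 the lowest, and over all 8 libraries Ncan and Tnc had the highest rho, 0.952.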
